A study of Mus musculus with 8 samples.

Results

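In control mouse hepatocytes, 2398 of the 16995 regions (14.1%) in the deposited list of chromatin immunoprecipitation (ChIP) enrichment lay at the ends of protein-coding genes. Rows of the list with the same chromosome, start and end were taken as 1 region. An end region was under 3000 bp wide, had no summit (point of highest signal) within 1000 bp of any gene's 5' end, and had a summit within 2000 bp of the 3' end of a protein-coding gene. Gene positions were those of the deposited RNA table, on mm10. The remaining control regions were 4521 narrow regions at gene starts, 9137 within gene bodies, 616 between genes and 323 regions of 3000 bp or more. The end regions belonged to 1648 genes. They were chosen by the measured position of their summits and by their width, so both are given as descriptions.

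RNA polymerase II transcribes past the end of a gene. The new RNA is cut and polyadenylated at the poly(A) signal while the polymerase continues, slows and is then released, so polymerase ChIP signal often gathers just past the ends of active genes. Mediator is a large complex that links transcription factors bound to DNA with the polymerase, and Lcmr1 is another name of Med19, one of its subunits. The series' design text names Lcmr1 as the ChIP target, whereas the titles of both ChIP samples name an RNA polymerase written as "poll III". The antibody therefore cannot be told from the labels.

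All 8 libraries came from liver-derived primary hepatocytes that were isolated by enzyme digestion, cultured for 24 h and given 100 nM glucagon, the fasting hormone, for 12 h. Knockout cells carried the floxed Lcmr1 gene with albumin-cre (labelled Lcmr1f/f * albumin-cre), in which the albumin promoter drives Cre in hepatocytes. Control cells carried the floxed gene alone (Lcmr1f/f). RNA was sequenced in 3 knockout and 3 control libraries, and ChIP in 1 knockout and 1 control library. No library without glucagon was analysed here, and the labels give no age or sex of the animals. The labels do not tie replicate numbers to animals, so a p-value here reflects variation among the sequenced samples, part or all of which could be technical.

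RNA libraries held 25305697 to 26344039 counts in the knockout and 22191786 to 26595249 in the control. Med19 had 2.91, 5.27 and 3.02 CPM (counts scaled to the size of the library) in knockout libraries, against 7.50, 10.8 and 13.4 CPM in control libraries (log2 fold change -1.50 ± 0.31 SE, edgeR adjusted p = 0.0120, and 0.0505 without knockout replicate 1). All 10 hepatocyte markers were measured, and all 10 fell in the knockout (7 with library size alone as the scaling), with summed levels of 28959 to 38434 CPM in knockout and 106438 to 120947 CPM in control libraries. Of 8 macrophage markers, 6 rose and 0 fell, with sums of 612 to 735 CPM in knockout and 286 to 363 CPM in control libraries. In such bulk samples, fewer cells of a type and less RNA per cell cannot be told apart, and the part of cell makeup in the RNA differences below was not tested. Control replicate 1 stood apart from the other two controls, as the chi-square per degree of freedom was 135 and 129 against them and 6.84 between control replicates 2 and 3.

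A start that the RNA table does not list can lie beside a gene end. RefSeq windows around transcription starts, on GRCm38.p6 (mm10), covered the chromosomes of 2319 end regions. A RefSeq start lay within 1000 bp of a summit at 39 of these regions (1.68%) and within 100 bp at 15. The nearest such start belonged to a protein-coding gene at 26 of the 39 regions and to a long noncoding RNA at 13. The fold of a region is its enrichment over background as the authors' peak caller gave it, and 3 of the 20 highest-fold end regions had a RefSeq start within 100 bp. These were the regions past the end of Galt, which makes a galactose-converting enzyme (fold 13.4, 40 bp from a start of Il11ra1), within Taf6l (fold 11.6, 34 bp from Tmem179b), and past the gene named 2-Mar in the table (fold 11.3, 45 bp from Hnrnpm). The sequences below are shown because they place a second gene's start under an end region. The first is a stretch of 30 bases within the 250 before that Il11ra1 start, at chr4:41760382-41760411 (plus strand), beneath the Galt region. The second is a like stretch before the start of Sco2, a mitochondrial copper chaperone, at chr15:89374094-89374123 (minus strand), beneath the region past Ncaph2 (fold 9.10). The third is the 250 bases before the start of Plxnb2, a semaphorin receptor, at chr15:89180789-89181038 (minus strand), beneath the region past Dennd6b (fold 8.21). Capitals mark matches to the GC box (GGGCGG) and the CCAAT box (CCAAT) on either strand.
Il11ra1: agtgATTGGcagttggaggctCCAATgggc
Sco2: aagaccaaggcgCCGCCCgagtggccgcgg
Plxnb2: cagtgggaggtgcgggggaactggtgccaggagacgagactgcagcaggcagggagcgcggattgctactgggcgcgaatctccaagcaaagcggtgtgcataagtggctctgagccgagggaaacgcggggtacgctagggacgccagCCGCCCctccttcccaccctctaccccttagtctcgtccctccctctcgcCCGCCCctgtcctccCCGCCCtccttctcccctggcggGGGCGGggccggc
The Il11ra1 window of 250 bases held 2 CCAAT boxes, the Sco2 window 1 GC box and the Plxnb2 window 4 GC boxes. None of these 3 windows held a TATA box (TATAAA). Of all 32851 RefSeq windows of that length, 32.7% held a GC box, 33.8% a CCAAT box and 12.4% a TATA box, so these matches are common. The Plxnb2 window had a GC content of 69.2%, against a median of 52.4% over all windows. A match describes the letters only.

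Small RNA genes also lay beneath end regions. Of 1005 RefSeq miRNA hairpins, 62 overlapped any control region and 16 overlapped an end region, in 10 end regions. A miRNA is a short RNA that silences mRNAs through its seed (bases 2 to 8), given in capitals in these RefSeq sequences (GRCm38.p6). They are shown to identify the best known miRNAs whose hairpins overlapped end regions, and the seeds that some of them share.
mmu-miR-21a-5p: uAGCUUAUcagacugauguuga
mmu-miR-126a-3p: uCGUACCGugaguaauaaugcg
mmu-miR-29b-3p: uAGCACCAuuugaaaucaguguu
mmu-miR-29c-3p: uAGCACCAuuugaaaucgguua
mmu-miR-294-3p: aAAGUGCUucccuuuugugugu
mmu-miR-295-3p: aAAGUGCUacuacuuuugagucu
The miR-21a hairpin (chr11:86584067-86584158) lay in an end region of Vmp1 with fold 7.83, whose summit was at -358 bp from the end of that autophagy gene, inside it. The hairpins of miR-29b-2 and miR-29c, which share a seed, lay in 1 region at the end of Cd46 (fold 4.51). Those of miR-126a and miR-126b lay in a region 943 bp past the end of Agpat2, an enzyme of phospholipid synthesis (fold 5.26), and this region also overlapped a knockout region, which the other 9 did not. The cluster with miR-294 and miR-295, which also share a seed, overlapped 2 end regions of Nlrp12 (folds 6.66 and 5.64). The miR-295 hairpin (chr7:3220773-3220841) ran past the end of its region at 3220791. The miR-295-3p sequence printed above, with its seed, lay outside that region. Mature miRNAs were not measured in the data analysed here.

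Genes transcribed by RNA polymerase III seldom overlapped the regions themselves. Of 430 RefSeq tRNA genes, 0 overlapped an end region (an approximate upper limit for a count of 0 is 0.698%), 4 overlapped any control region and 0 overlapped a knockout region. Of the 12 listed genes of that polymerase, 10 could be located and 0 overlapped an end region, and the vault RNA gene Vaultrc5 overlapped another control region. Overlap leaves out nearby signal. The RNA table held 3 of the 12 genes, and all 3 had a control summit within 1000 bp of the 5' end.

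The end regions were short. Their median width was 392 bp (range 228 to 2982 bp) and 2136 of 2398 had a single summit. Their fold had a median of 4.77 (quartiles 4.01 and 5.70, lowest 1.72), close to the median of 4.75 for body regions and below the 5.96 for start regions. The median -log10 q was 3.47, the lowest in the list being 1.31, and 39 end regions had a fold of at least 10. Just inside the width limit stood a region of Wbp1l (2982 bp, fold 12.3), and just outside it one at Ell3 (3029 bp, fold 9.83). At the limit of distance to a 5' end, C1rl was inside (1002 bp, fold 4.05) and Pcyt2 outside (990 bp, fold 6.66). At the limit of distance to the 3' end, Preb was inside (1999 bp, fold 4.71) and Dnah2 outside (2003 bp, fold 5.87). Of the 323 broad regions, 135 had a summit within 2000 bp of a protein-coding gene's end, and 85 of these had no summit within 1000 bp of a 5' end and were kept out by their width alone.

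Summits fell on both sides of the annotated end. The nearest summit was past the end in 1241 end regions (51.8%, exact 95% interval 49.7 to 53.8) and inside the gene in the others, at a median distance of 804 bp. Such intervals cover counting error only. Within 500 bp of the end lay 781 of them (32.6%). Counted in bins of 500 bp, narrow regions away from gene starts numbered 340 in the last bin inside the gene, 440 in the next bin past its end, then 361, 237 and 203. The bin from 4500 to 5000 bp past the end held 58, and that from 4500 to 5000 bp inside the gene held 158. Regions with a fold of 8 or more numbered 27 and 34 in the 2 bins beside the end, and 12 or fewer in every other bin inside the gene. The summit lay inside another annotated gene in 565 end regions (23.6%), and 518 (21.6%) had at least 2 protein-coding ends in reach, so for these the gene given is the nearest one. Chromosome 11 held the most end regions, 240, and chromosome X the fewest, 19.

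**Figure D1:**
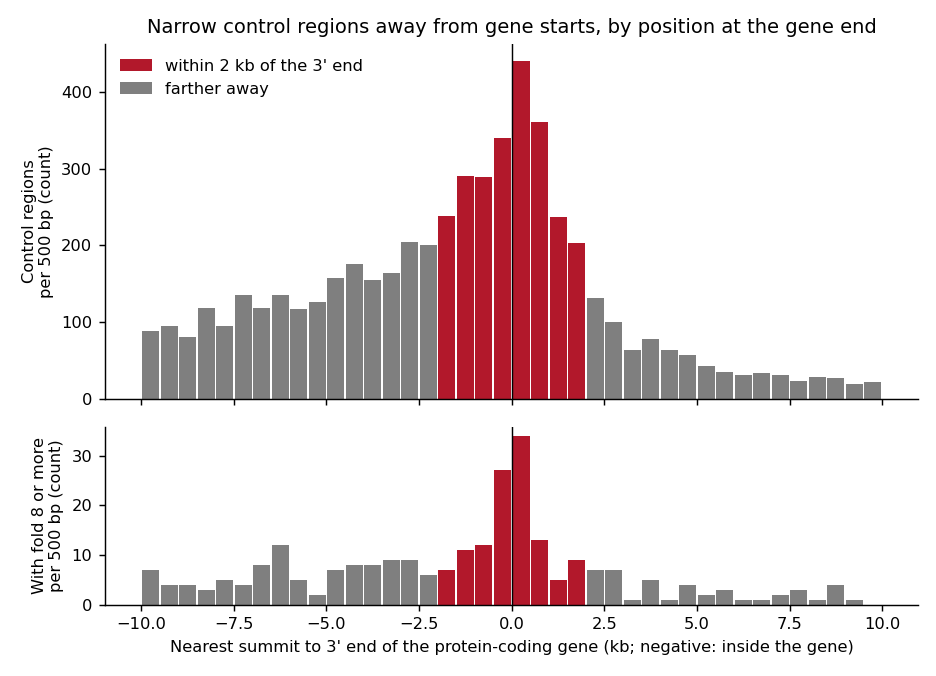
Number of narrow control regions with no summit near a gene start (upper panel) and of those with a fold of 8 or more (lower panel), per 500 bp of distance between the nearest summit and the 3' end of the nearest protein-coding gene; red bars are the end regions. The upper counts are highest in the bin just past the end, 440, and decline faster outside the gene than inside it.

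Of the 12 highest-fold end regions, 11 are described here, so the counts below are over 11 regions and give no ranks. One of these lay 475 bp past the end of Fam120a at chr13:48878482-48879032 (fold 23.3). Another, assigned to the SUMO protease gene Senp3 (fold 15.0), lay inside the neighbouring Eif4a1 gene and 1013 bp from a gene start, just beyond the 1000 bp limit. The others were at Egfr, the epidermal growth factor receptor (14.6), Zfp36l2, an mRNA decay factor (14.0), Sds, serine dehydratase (13.9), Tob1, an antiproliferative factor (13.9), Atp2a2, a calcium pump (13.6), Galt (13.4), Gpt2, an alanine transaminase (12.7), Eef1a1, a translation elongation factor (12.5), and Agt, the angiotensin precursor (12.5). Of these 11 regions, 7 had the nearest summit past the end. Those at Sds and Eef1a1 each had at least 2 protein-coding ends in reach, with Plbd2 and Mto1 as the neighbours.

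Few end regions were also found in the knockout list. The knockout list held 1309 regions, and 114 of the 2398 end regions (4.75%, exact 95% interval 3.94 to 5.68) overlapped one by at least 1 bp, against 4.48% of all control regions, a share near that background. The shares were 5.02% for start regions, 2.60% for body regions, 4.38% for intergenic regions and 48.0% for broad regions. With 1 library per genotype there is no test, and a region missing from the shorter list is not thereby shown to lack signal. Among end regions the share was 1.32% (8 of 608) in the lowest of 4 ranges of control fold and 11.3% (68 of 600, interval 8.91 to 14.1) in the highest. In the same highest range of folds it was 7.34% for start regions (6.36 to 8.43) and 6.92% for body regions (5.92 to 8.04), and the median widths there were 716 bp for end, 433 bp for start and 607 bp for body regions. Among regions with a -log10 q of at least 10, 40 of 138 end regions (29.0%) overlapped a knockout region, against 157 of 1249 start regions (12.6%) and 108 of 599 body regions. Under the requirement that a knockout region cover at least 50% of the control region, only 35 end regions were left. Of the 11 high-fold end regions described above, 7 overlapped a knockout region, those of Fam120a, Senp3, Zfp36l2, Sds, Tob1, Gpt2 and Eef1a1, and the regions of Egfr, Atp2a2, Galt and Agt did not.

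**Figure D2:**
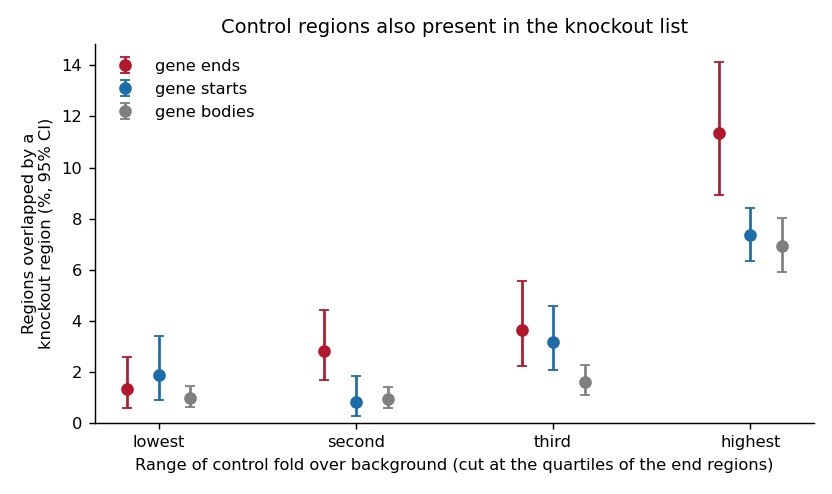
Percent of control regions overlapped by at least 1 bp of a knockout region, in 4 ranges of control fold cut at the quartiles of the end regions, for regions at gene ends, gene starts and gene bodies; bars are exact 95% binomial intervals over regions of 1 library. The end regions reach 11.3% in the highest range, above 7.34% for starts and 6.92% for bodies, and the end regions there were also wider.

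Read from its own side, 126 of 1309 knockout regions (9.63%) overlapped a control end region, and 1122 (85.7%) overlapped any control region. The same rule applied to the knockout list gave 293 end regions at 209 genes, of which 119 genes also had a control end region. The summit was past the end in 52.6% of them, and 237 (80.9%) overlapped some control region.

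Genes with an end region were abundant in RNA. Of the 1648 genes, 1598 passed the filter on low counts, and their median was 63.2 CPM in knockout and 78.3 CPM in control libraries (quartiles 31.1 and 200 CPM in control). The other protein-coding genes that passed had medians of 13.5 CPM in knockout and 13.4 CPM in control libraries. By library, the median of genes with an end region was 64.9, 67.8 and 57.4 CPM in knockout and 79.3, 75.6 and 73.7 CPM in control libraries, so the groups did not overlap. The order depends on the scaling, since with library size alone the medians were 78.9, 81.2 and 72.9 CPM in knockout and 61.3, 63.3 and 61.7 CPM in control libraries. Per kb of gene span, since exon lengths are not in the files, the control median was 3.29 CPM with an end region and 0.474 CPM without. These 1648 genes held 31.3 to 31.9% of all counts in knockout libraries and 31.8 to 32.3% in control libraries. Protein-coding genes were then sorted by mean CPM into 10 bins of equal size. The share with an end region was 2.45% in the lowest bin, 5.60% in bin 5, 18.3% in bin 8 and 42.9% in the highest. The share with a summit within 1000 bp of the gene's own 5' end rose too, at 6.37%, 33.1%, 46.8% and 58.4% in the same bins. Protein-coding genes with such a summit and no end region had a control median of 29.2 CPM. The filter and the order of abundance used all 6 libraries.

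Genes with an end region also tended to have a start summit and a facing neighbour. A summit at the gene's own 5' end was present in 944 of 1648 (57.3%), against 22.7% of protein-coding genes without an end region. Among genes that passed the filter on low counts, the shares were 58.4% and 29.8%. Such summits became more common with RNA abundance, as given above, and the part of abundance in these shares was not tested. A convergent protein-coding neighbour, one whose own 3' end faced the gene within 5000 bp, was present for 24.2% of tested genes with an end region and for 17.0% of the others. A neighbour lying in tandem was present for 10.0% and 13.6%. A facing neighbour puts a second gene end within reach. The rule also drops regions with a summit within 1000 bp of any 5' end, and so can leave out regions beside a close tandem neighbour. These shares are therefore given as descriptions, and the part of the rule in them was not tested.

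More genes with an end region fell than rose in the knockout. Of the 1598 tested, 99 rose (6.20%) and 415 fell (26.0%) by edgeR at an adjusted p under 0.05, against 12.6% higher and 13% lower among all 15135 genes tested and 13.2% and 13.4% among protein-coding genes. At least 2-fold changes were fewer, with 33 higher and 159 lower. Their median log2 fold change was -0.20, with 66.6% below 0, and the median over all genes was 0.01. These directions depend on the scaling. Counts here were scaled by TMM, with factors of 1.20 to 1.27 in knockout and 0.773 to 0.837 in control libraries. With library size alone the median of all genes moved to 0.60 and that of genes with an end region to 0.38, so 755 of them were called higher (47.2%) and 135 lower (8.45%), against 50.9% and 4.08% of all genes. The median of genes with an end region minus that of the other protein-coding genes was -0.26 with either scaling. A change of scaling moves all genes by nearly the same amount, so it could hardly alter this difference. Without control replicate 1, 170 rose and 522 fell, against 15.5% and 16.4% of all genes. Without control replicate 2 or 3 or knockout replicate 1 or 2, between 43 and 61 rose (2.69 to 3.82%), against 7.23 to 7.90% of all genes. Without knockout replicate 1, 261 fell (16.3%), against 7.23% of all genes.

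The abundance of these genes moved with that result. In the highest bin of CPM, 38.8% of genes with an end region and 35.8% of those without fell, and 4.65% and 9.53% rose. Their median log2 fold changes there were -0.32 with and -0.24 without an end region. In bin 8, 25.2% with and 15.5% without an end region fell, and in bin 5, 8 of 73 genes with an end region and 11.9% of those without did. The part of abundance in the result over all genes was not tested further. Genes with an end region and a start summit had a median of -0.23 and those with an end region alone -0.17. Genes with only a start summit had a median of -0.06, with 10.5% higher and 15.3% lower.

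**Figure D3:**
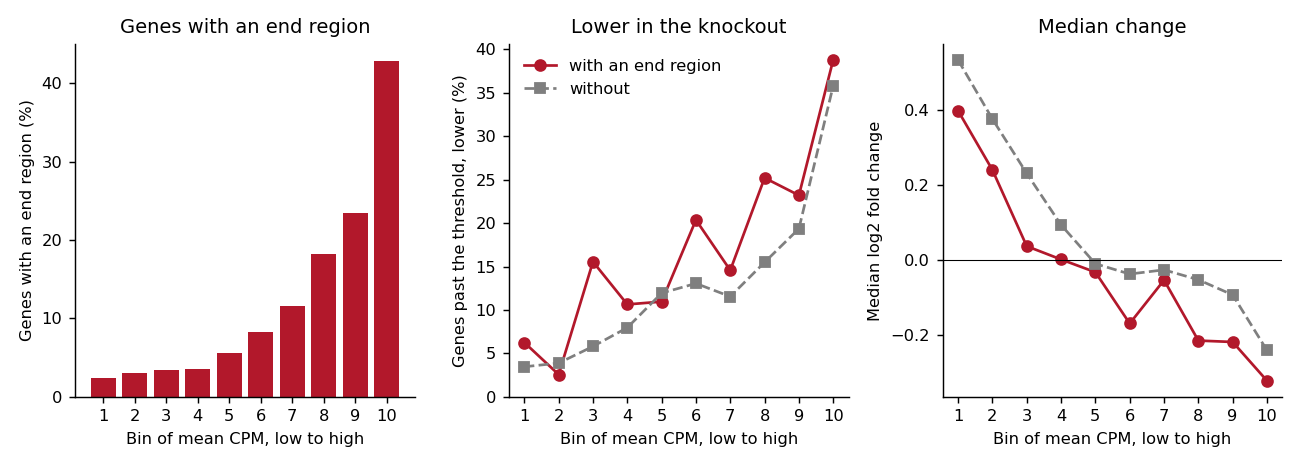
Protein-coding genes in 10 bins of mean CPM over 6 libraries, low to high: percent with an end region (left), percent lower in the knockout at an adjusted p under 0.05 (middle) and median log2 fold change, knockout over control (right), for genes with (red circles) and without (grey squares) an end region. The share with an end region reaches 42.9% in the highest bin, where both kinds of gene fell most often, 38.8% with and 35.8% without.

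The place of the region and its presence in the knockout list gave similar shares of falls. Genes with a region past the end had 55 higher (5.45%) and 272 lower (27.0%) of 1009 tested. Genes with regions inside the gene only had 44 higher (7.47%) and 143 lower (24.3%) of 589. Genes whose end region overlapped a knockout region had 10 higher (10.1%) and 26 lower (26.3%) of 99. Genes whose region did not had 89 higher (5.94%) and 389 lower (26.0%) of 1499. The 154 tested genes with at least 3 end regions had 13 higher and 55 lower (35.7%) and a median control level of 148 CPM. In genes with no other gene within 5000 bp of the 3' end, 644 in all, 23 rose and 201 fell, with a median of -0.30. Of all tested genes with an end region, 6.20% rose and 26.0% fell, and of all genes tested, 12.6% and 13%. The shares for equally isolated genes without an end region were not computed.

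Among the genes of these 11 high-fold end regions, 3 fell and 0 rose. Of all tested genes with an end region, 26.0% fell and 6.20% rose, so the number of falls is near that background. Egfr had 99.7, 199 and 63.5 CPM in knockout libraries, against 440, 386 and 381 CPM in control libraries (-1.74 ± 0.40 SE, edgeR adjusted p = 0.0220). The groups did not overlap, although the adjusted p was above 0.05 without control replicate 1, 2 or 3 or knockout replicate 1 (at most 0.0882) and with no filter on low counts (0.113). Zfp36l2 had 60.7, 56.5 and 32.8 CPM in knockout libraries, against 196, 107 and 106 CPM in control libraries (-1.45 ± 0.32 SE, edgeR adjusted p = 0.0192). Here control replicate 1 was the high one, and without knockout replicate 2 the adjusted p was 0.0517, and 0.0953 with no filter on low counts. Eef1a1 had 2685, 3105 and 2404 CPM in knockout libraries, against 4156, 4348 and 4440 CPM in control libraries (-0.66 ± 0.13 SE, edgeR adjusted p = 0.00849). Its value was -0.08 with library size alone, and reads of its many processed copies could be split.

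The remaining 8 did not pass the test. Fam120a had 199, 200 and 198 CPM in knockout libraries, against 201, 243 and 224 CPM in control libraries (-0.16, adjusted p = 0.310). Its 3 knockout values lay just below the lowest control value. Gpt2, with the region at chr8:85525315-85528171, had 572, 620 and 407 CPM in knockout libraries, against 727, 475 and 487 CPM in control libraries, which overlapped (-0.08, adjusted p = 0.820). Senp3, Sds, Tob1, Atp2a2, Galt and Agt had log2 fold changes between -0.44 and 0.28 with overlapping groups. With library size alone, Fam120a, Senp3, Gpt2, Sds, Tob1 and Agt were called higher, at 0.42 to 0.88. Sds was called higher without control replicate 1 too (0.51).

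**Figure D4:**
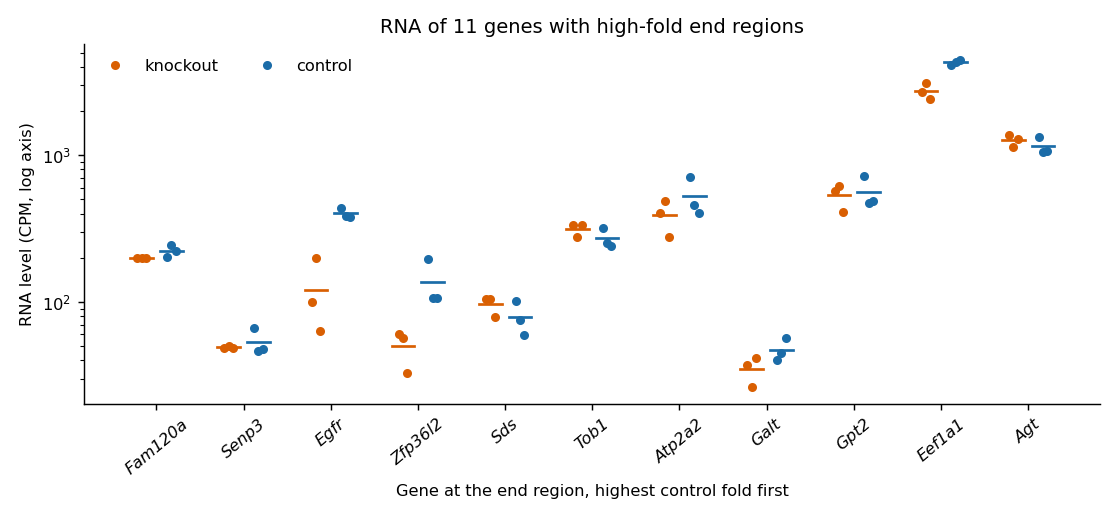
RNA level of the genes of 11 high-fold end regions in each of 3 knockout and 3 control libraries (CPM, log axis), highest control fold first; points are libraries and lines their means. Knockout and control points separate for Egfr, Zfp36l2 and Eef1a1, and lie close together for Fam120a, Senp3 and Gpt2.

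By role, the secreted proteins of the liver, the longest list, made the largest listed group with end regions by number. Their share with an end region was 47.0%, beside 49.1% for the genes of drug and bile acid handling. Of 66 plasma protein genes in the table, 31 had an end region. Of these, 23 fell, 1 rose and the median log2 fold change was -0.83. Of the 35 without, 24 fell and 1 rose, with a median of -1.46. Of all tested genes with an end region, 26.0% fell and 6.20% rose. With library size alone, 14 of the 31 were lower and 3 higher, against 8.45% and 47.2% of all genes with an end region. The 1 with an end region that rose, named after its values were seen, was F12, a clotting factor (0.60). Fga, a fibrinogen chain, had 2316, 2553 and 2008 CPM in knockout libraries, against 19049, 6389 and 6086 CPM in control libraries (-2.20 ± 0.48 SE, edgeR adjusted p = 0.0204), with control replicate 1 far above the other two. Without control replicate 1 its change was -1.45. Its adjusted p was 0.0614 to 0.0683 when any 1 knockout replicate was left out, and 0.0981 with no filter on low counts. Ahsg, a secreted mineral-binding protein, had 3608, 4164 and 3191 CPM in knockout libraries, against 9902, 8746 and 9185 CPM in control libraries (-1.34 ± 0.13 SE, edgeR adjusted p = 0.000687). Apoa2, an apolipoprotein of high-density lipoprotein, averaged 2771 ± 269 CPM in knockout and 8427 ± 424 CPM in control libraries (SD, n = 3 each), and its region lay 602 bp past its end. Gc, the vitamin D carrier, averaged 3517 ± 371 CPM in knockout and 6149 ± 221 CPM in control libraries (SD, n = 3 each; -0.81, and -0.22 and not called with library size alone). Serpinf2, an inhibitor of plasmin with 4 end regions, averaged 636 ± 48.4 CPM in knockout and 1393 ± 122 CPM in control libraries (SD, n = 3 each; -1.13, edgeR adjusted p = 0.000920). Apoh, with 4 end regions and the highest end fold in the list (10.3), averaged 2378 ± 56.7 CPM in knockout and 2474 ± 38.2 CPM in control libraries (SD, n = 3 each), and its change of -0.06 did not pass (0.53 with library size alone, called higher). Hpx, the heme carrier, did not pass either (-0.35, adjusted p = 0.247).

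Genes of drug and bile acid handling fell by larger amounts. Of 57 in the table, 28 had an end region, and 23 of these fell and 0 rose, with a median of -1.34. Of the 29 without, 19 fell and 3 rose, with a median of -1.30. With library size alone, 17 of the 28 were still lower, against 8.45% of all genes with an end region. Nr1i3, a nuclear receptor that controls drug metabolism, had 0.387, 1.14 and 0.405 CPM in knockout libraries, against 18.6, 41.0 and 33.0 CPM in control libraries (-5.57 ± 0.51 SE, edgeR adjusted p = 0.000789). Its stronger region lay 424 bp past its end and 439 bp from a RefSeq start of Apoa2, and both of its end regions lay inside the overlapping Tomm40l gene. Slco1a1, an uptake transporter of organic anions, had 4.07, 8.32 and 6.48 CPM in knockout libraries, against 163, 337 and 360 CPM in control libraries (-5.51 ± 0.43 SE, edgeR adjusted p = 0.000554). Cyp2d9, a cytochrome P450 with an end region of fold 9.94, averaged 853 ± 36.1 CPM in knockout and 1785 ± 198 CPM in control libraries (SD, n = 3 each; -1.06, edgeR adjusted p = 0.00123). Nr1i2, a receptor for foreign compounds, averaged 58.2 ± 4.78 CPM in knockout and 105 ± 19.6 CPM in control libraries (SD, n = 3 each; -0.86, edgeR adjusted p = 0.00716, and 0.203 with library size alone). Both hepatocyte markers with an end region, Ttr (-1.61) and Serpina1c (-1.49), fell as well.

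Genes of the metabolic lists with an end region moved less. Of 45 genes of gluconeogenesis and the glucagon response, 19 had an end region, with 1 higher, 4 lower and a median of -0.05. The 26 without had 2 higher, 8 lower and a median of -0.12. With library size alone 14 of the 19 were higher and 2 lower (median 0.55). That scaling called 47.2% of all genes with an end region higher and 8.45% lower. With upper-quartile factors the counts were 3 and 3 (0.03), and without control replicate 1, 5 and 5 (0.15). The 4 that fell were Aqp9, a glycerol channel (-1.32), the transcription factor Cebpa (-1.28), the glucagon receptor Gcgr (-0.90) and pyruvate carboxylase Pcx (-0.39). The 1 that rose was the clock gene Per1 (0.69). Of these 5, Aqp9, Cebpa, Pcx and Per1 were named after their values were seen. Gcgr had 227, 259 and 241 CPM in knockout libraries, against 413, 460 and 484 CPM in control libraries (edgeR adjusted p = 0.00199, and 0.0699 with library size alone), and its region lay 149 bp past its end with a fold of 11.2. Sds, whose product breaks down serine to pyruvate, had 105, 105 and 79.0 CPM in knockout libraries, against 102, 75.5 and 59.7 CPM in control libraries, and did not pass (0.28, adjusted p = 0.350), whereas it did without control replicate 1 (0.51, adjusted p = 0.0420).

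Of 56 lipid genes, 18 had an end region, with 2 higher, 3 lower and a median of -0.20, and 7 higher, 1 lower and a median of 0.38 with library size alone. For these counts and those of the next list, that scaling called 47.2% of all genes with an end region higher and 8.45% lower. The 38 lipid genes without an end region had 3 higher, 16 lower and a median of -0.56 with TMM scaling. Dgat1, an enzyme of triglyceride synthesis, rose (0.49 ± 0.14 SE, edgeR adjusted p = 0.0346, but 0.112 to 0.123 without control replicate 2 or 3 or knockout replicate 1 or 3), whereas Dgat2 (-0.16) and Cpt1a, which admits fatty acids to mitochondria (0.12), did not pass. Hadhb was the other gene that rose (0.66), and Insig2 (-1.93), Hsd17b4 (-0.73) and Acaa2 (-0.53) fell. These 4 were named after their values were seen. Of 40 amino acid and urea genes, 15 had an end region, with 1 higher, 5 lower and a median of -0.29, and 6 higher, 2 lower and a median of 0.32 with library size alone. Without control replicate 1, 3 were higher and 6 lower. The 25 genes of this list without an end region had 3 higher, 10 lower and a median of -0.55 with TMM scaling and all replicates. Aass, an enzyme of lysine breakdown with 3 end regions, did not pass (0.17), but did without control replicate 1 (0.48, adjusted p = 0.00691).

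Of 44 immediate early and stress genes, 19 had an end region, and their median of -0.79 was large beside the counts of 1 higher and 2 lower (-0.18, 3 and 1 with library size alone). The 24 tested genes of the list without an end region had a median of -1.01, with 3 higher and 2 lower. Control replicate 1 had the highest control value for the 3 genes named below. The summed level of the whole list ranged from 3985 to 7137 CPM in knockout and from 7791 to 17824 CPM in control libraries, and without control replicate 1 the median for genes with an end region was -0.08, with 3 higher and 5 lower. Xbp1, a factor of the unfolded protein response, had 228, 241 and 124 CPM in knockout libraries, against 690, 314 and 313 CPM in control libraries (-1.15 ± 0.39 SE, edgeR adjusted p = 0.0755). Its end region spanned 2804 bp with 4 summits (fold 11.7). Ddit3, a stress-induced transcription factor, had 13.3, 12.4 and 17.8 CPM in knockout libraries, against 148, 36.0 and 32.2 CPM in control libraries (-2.31 ± 0.67 SE, edgeR adjusted p = 0.0533). Without control replicate 1 it was -1.24 and passed (adjusted p = 0.000876), and without control replicate 2 or 3 it passed as well (adjusted p = 0.0499 and 0.0450). Its 2 end regions lay inside the convergent Mars gene. Mcl1, a survival factor, did not pass (-0.16).

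Of 35 ribosome and translation genes, 7 had an end region, with 4 lower, 0 higher and a median of -0.61, and 0 lower and 2 higher with library size alone. Of the 28 without an end region, 19 were lower and 0 higher with TMM scaling, with a median of -0.43. Among all genes tested, 13% were lower. Besides Eef1a1, the initiation factor Eif1 fell (-0.65 ± 0.17 SE, edgeR adjusted p = 0.0284) and Eif4g2 did not pass (0.11). The value of Eif1 was -0.06 with library size alone, and its adjusted p was 0.0550 to 0.0917 without control replicate 3 or any 1 knockout replicate. Of 42 genes for cleavage, polyadenylation and termination, the steps that take place at gene ends, 9 had an end region. Only Cpsf1, a subunit of the cleavage complex, fell (-0.55 ± 0.10 SE, edgeR adjusted p = 0.00799), and its value was 0.04 with library size alone. Wdr82 (-0.20) and Cpsf6 (-0.04) did not pass, and 0 of the 33 listed genes without an end region were called. With library size alone, 6 of the 9 genes with an end region and 27 of all 42 were higher. That scaling also called 47.2% of all genes with an end region and 50.9% of all genes tested higher. Of the marker lists for other cells, the macrophage, stellate and bile duct lists had 0 genes with an end region. The endothelial list had 1, the receptor gene Kdr (0.65, adjusted p = 0.0920).

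**Figure D5:**
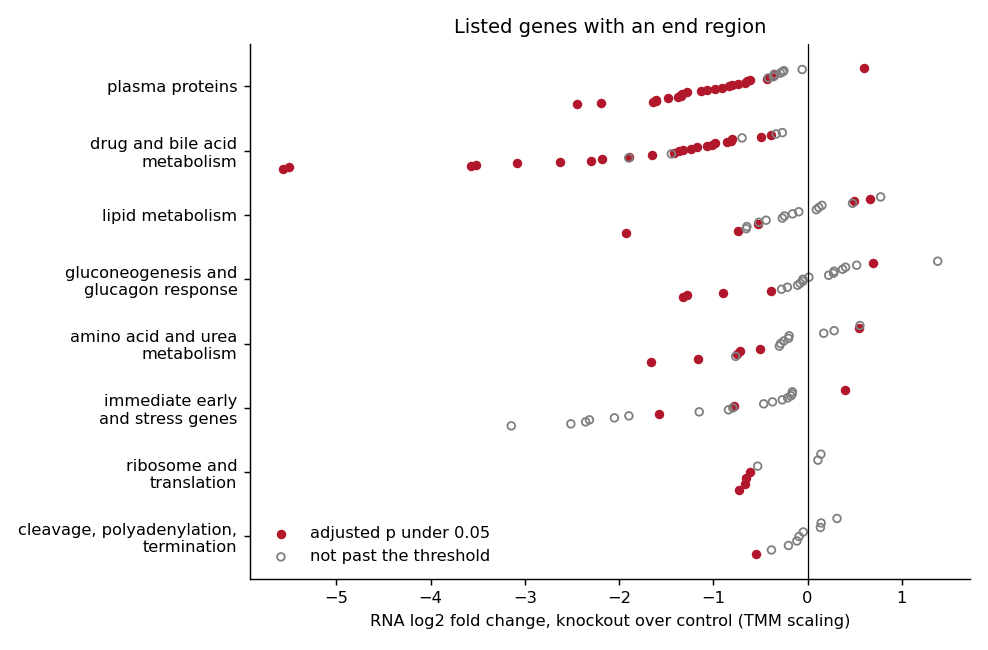
Log2 fold change of RNA (knockout over control, TMM scaling) for each listed gene with an end region, 1 row of points per list; filled points had an edgeR adjusted p under 0.05. Most plasma protein and drug or bile acid genes lie left of 0 and are filled, 23 of 31 and 23 of 28, and the cleavage and termination genes lie near 0.

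The 6 largest falls among genes with an end region, counting only genes that averaged 5 CPM or more in 1 group and whose groups were fully separate, were those of Hsd3b5, Pitx3, Cyp2c37, Mup20 and, described above, Nr1i3 and Slco1a1. Hsd3b5, a liver steroid enzyme of a near-identical family, had 0, 1.08 and 0 CPM in knockout libraries, against 11.9, 217 and 230 CPM in control libraries (-8.71 ± 1.79 SE, edgeR adjusted p = 0.0205). Without control replicate 3, or without any 1 knockout replicate, its adjusted p was 0.0519 to 0.0655, and it was 0.0741 with no filter on low counts. Cyp2c37, a cytochrome P450 with close relatives beside it, had 8.40, 12.5 and 4.18 CPM in knockout libraries, against 564, 372 and 339 CPM in control libraries (-5.66 ± 0.47 SE, edgeR adjusted p = 0.000706). The major urinary protein gene Mup20 fell (-4.76), as did Mup3 (-4.37), named for its abundance, and reads of such families could be split between copies. Mup3 had 265, 563 and 112 CPM in knockout libraries, against 5303, 6934 and 7246 CPM in control libraries. Pitx3, known as a factor of lens and neurons, had 0.0969, 0.794 and 0 CPM in knockout libraries, against 21.3, 27.8 and 23.8 CPM in control libraries (-6.33 ± 0.84 SE, edgeR adjusted p = 0.00391). Its region has the facing end of Elovl3 in reach, and without a stated strand setting reads of the facing genes cannot be told apart.

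The largest rises were from low control levels. Myo7b, a myosin of brush border cells, had 20.7, 15.3 and 28.0 CPM in knockout libraries, against 0, 0.191 and 0.269 CPM in control libraries (7.10 ± 0.55 SE, edgeR adjusted p = 0.000398). Its control end region was weak (fold 3.33), with the end of Lims2 also in reach. Jazf1, a transcriptional regulator, had 8.78, 6.07 and 8.07 CPM in knockout libraries, against 0.195, 0.238 and 0.377 CPM in control libraries (4.81 ± 0.33 SE, edgeR adjusted p = 0.000325). Mpp2 (4.76), Sdr39u1 (2.28) and Slc22a3, an organic cation transporter (1.93), rose too, and their regions stood near or inside Cd300lg, Khnyn and Plg. Fads3, a fatty acid desaturase family member, was the most abundant of these 6, with 95.9, 87.1 and 123 CPM in knockout libraries, against 19.5, 9.44 and 11.6 CPM in control libraries (2.91 ± 0.29 SE, edgeR adjusted p = 0.000970). It had 3 end regions, the strongest 643 bp past its end (fold 9.43), and all 3 overlapped a knockout region.

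Of the 1648 genes, 1082 had 1 end region, 411 had 2 and 155 had at least 3. The largest number was 5, in 4 genes. At Hbp1, a transcription repressor, 5 regions stretched from chr12:31924318 to chr12:31928036, with folds of 3.77 to 9.75, and all lay within the overlapping Cog5 gene. Its RNA change of -0.23 did not pass (adjusted p = 0.240). Lurap1l averaged 71.8 ± 15.8 CPM in knockout and 118 ± 7.48 CPM in control libraries (SD, n = 3 each; -0.71, edgeR adjusted p = 0.0181), with an adjusted p of 0.0543 to 0.0583 without control replicate 2 or 3 or knockout replicate 2, and a value of -0.13 with library size alone. Mfsd2a, a lipid transporter, had 46.0, 73.3 and 6.27 CPM in knockout libraries, against 371, 77.8 and 67.7 CPM in control libraries. The groups overlapped and the change did not pass (-2.04 ± 1.08 SE, edgeR adjusted p = 0.219).

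G6pc, the gene in the series title, Pck1 and the targeted Med19 had no end region. G6pc, which codes for the enzyme that releases free glucose, lay under a broad control region of 12056 bp (chr11:101367529-101379584, fold 39.0), and Pck1, the gluconeogenic carboxykinase, under one of 8620 bp (chr2:173152971-173161590, fold 55.5). Both broad regions overlapped a knockout region and reached past the gene's end, and were wider than the limit. G6pc RNA had 303, 478 and 422 CPM in knockout libraries, against 426, 478 and 436 CPM in control libraries (-0.16, adjusted p = 0.533). Pck1 RNA had 1757, 2245 and 1510 CPM in knockout libraries, against 4268, 4695 and 4593 CPM in control libraries, and fell (-1.30 ± 0.16 SE, edgeR adjusted p = 0.00167). Med19 had no control region assigned.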

How the data were processed

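The deposited RNA table gives whole-number counts per gene, for which the submitters' processing notes list mm10, Bowtie2 2.2.3, HISAT2 2.1.0 and HTSeq 0.6.0; no strand setting is named. The same table carries the authors' own comparison as deposited (a mean signal of normalised counts, log2 fold changes and p-values), which was not used. The ChIP lists, 1 per library, were deposited with a score, -log10 q- and p-values, and a fold over background (a ratio) per peak. BWA, SAMtools and MACS2 are among the tools named for ChIP, without versions, in the submitters' processing notes, and no input library is named. The authors' ChIP libraries had 1% formaldehyde for 10 min, 15 PCR cycles and 150 nt paired reads per the labels.

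Genes passing filterByExpr (minimum count 10, total 15; 15135 of 27277) were scaled by TMM and tested with edgeR 4.0.16 in R 4.3.3 (quasi-likelihood, two-sided, genotype only, Benjamini-Hochberg, threshold 0.05), and the script was tested on simulated data. Intervals are exact binomial, except that the upper limit for a count of 0 is approximated as 3 divided by the number of genes. Distances run from the nearest summit. Regions, 14 gene lists (436 entries) and named genes were chosen with earlier results of these data known. Named genes were the 12 highest-fold end regions, the 5 most abundant genes, the 6 largest rises and falls (at least 5 CPM in the higher group, no overlap), up to 3 per list by fold, genes with most end regions, and G6pc, Pck1 and Med19, of which 2 genes are not reported here. Of the list of RNA polymerase III genes, 1 was tested (Rn7sk, -1.27, edgeR adjusted p = 0.0349, and over 0.05 without any 1 replicate or with no filter) and had no end region. Of the 5 bile duct and 7 stellate markers, 0 and 1 rose. Alternatives varied the q-value, windows, overlap, scaling, filter, replicates and test.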

Additional observations from a re-analysis of the deposited data

How the results depend on the processing

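The number of end regions depended on the significance required of the peaks. With a -log10 q of at least 3 there were 1535, with at least 10 there were 138 at 132 genes, with 54.3% past the end, and with a 3' window of 1000 bp there were 1430, with 56.0% past the end. Knockout overlap was 35 regions with at least 50% covered, and 40 of 138 (29.0%) at a -log10 q of at least 10. The median control CPM was 63.7 with library size alone, 73.5 over all genes of the table, and 75.3 to 79.2 leaving out control replicates.

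For genes with an end region, library size alone gave 755 higher and 135 lower and a median log2 fold change of 0.38. At a -log10 q of at least 10, which left 132 genes before the filter on low counts, 4 rose and 50 fell (median -0.44). With no other gene nearby, 23 rose and 201 fell of 644 tested. With 1 protein-coding end in reach 63 rose (an alternative chosen after seeing the data). In the main fit, 6.20% of tested genes with an end region rose and 26.0% fell. Leaving out a replicate gave 43 to 170 higher and 261 to 522 lower, with medians from -0.24 to -0.17. Over all genes, library size alone gave 7711 higher and 617 lower (median 0.60), upper-quartile factors a median of 0.086 and no filter 0.12. Leaving out a replicate gave 1119 to 2407 higher, 1104 to 2514 lower and medians of -0.013 to 0.035. The median of genes with an end region minus that of other protein-coding genes lay between -0.28 and -0.23 in all 12 alternative RNA fits. Those fits that changed only the scaling could hardly alter it, since they move all genes by nearly the same amount.

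Same-numbered replicates had deviations correlated at 0.11, 0.05 and 0.09, each library correlating best with its own number, which was not over 0.1 in every pair. With the replicate number as a block, 91 genes with an end region rose and 393 fell (median -0.19), and 1713 and 1755 of all genes did. Of the named genes, 2 gained the call with the block (Xbp1 and Kdr) and 1 lost it (Rn7sk).

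Of 59 named genes, 21 kept direction and call in every fit. With library size alone 14 changed sign, of which Fam120a (0.42), Senp3 (0.47), Gpt2 (0.52), Apoh (0.53), Mcl1 (0.44) and Wdr82 (0.38) were then called higher and Cpsf1 (0.040) lost its call, whereas Atp2a2 (0.17), Galt (0.15), Hpx (0.25), Dgat2 (0.42), Cpsf6 (0.53), G6pc (0.43) and Hbp1 (0.35) were called in neither fit. With upper-quartile factors Apoh (0.015) and Cpsf6 (0.022) changed sign without a call. With a replicate left out, the values of 5 genes lay on both sides of 0 without a call: Senp3 (-0.23 to 0.060), Gpt2 (-0.22 to 0.15), Cpt1a (-0.070 to 0.44), Mcl1 (-0.29 to 0.015) and Cpsf6 (-0.23 to 0.13). With no filter Egfr, Zfp36l2, Fga, Hsd3b5 and Rn7sk lost their calls. The cause of these changes was not tested beyond the settings themselves.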
